A study of Mus musculus with 12 samples.

Results

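The genes described here are 10 genes of T lymphocytes and natural killer (NK) cells in the mouse aorta: Cd3d, Cd3e, Cd3g, Cd8a, Lck, Nkg7, Gzma, Gzmb, Prf1 and Ncr1. They were given as a list by name, and all 10 were found among the 24341 named genes of the count table. Aortic RNA came from 12 male C57BL/6J mice, 10 weeks old, in 3 groups of 4. Controls (saline) had saline infused into the infrarenal segment, with harvest at day 7. The remaining mice had that segment infused with PPE (porcine pancreatic elastase), which breaks down elastin and causes the wall to widen. Their aortas were taken at day 7 for the PPE week 1 group and at day 14 for the PPE week 2 group. No saline group at day 14 was analysed here, so PPE week 2 differs from saline in both treatment and time.

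T cells recognise peptides through the T cell receptor, which has no signalling tail of its own and relies on the CD3 chains. The kinase Lck, held at the coreceptors CD4 and CD8, phosphorylates those chains once the receptor is engaged. Cytotoxic T cells and NK cells kill by releasing granules that hold the pore-forming protein perforin and serine proteases called granzymes. NK cells lack the T cell receptor and sense targets through receptors such as NKp46, which Ncr1 encodes. In aneurysmal aortas T cells are known mainly from the adventitia.

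Levels are given as CPM, counts per 1000000 counts of a library after TMM scaling, and 1 gene is represented by its RefSeq accession with the highest mean CPM. Called means an adjusted p under 0.05 in edgeR's quasi-likelihood test, with Benjamini-Hochberg adjustment over the 12756 accessions tested. Library totals were 8343313 to 12269131 counts. The ribosomal RNA precursor NR_046233 took 36.2 to 49.9% of them in saline, 21.0 to 34.6% at PPE week 1 and 19.5 to 22.1% at PPE week 2. All 4 smooth muscle markers checked (Acta2, Myh11, Cnn1 and Tagln) were detected. Their summed level was 4200 to 5657 CPM in saline, 1454 to 2604 in PPE week 1, below saline without overlap, and 3990 to 8920 in PPE week 2. Over all features, 508 were called higher and 499 lower at PPE week 1 against saline, 166 and 172 at PPE week 2 against saline, and 481 and 360 at PPE week 2 against PPE week 1. When libraries were scaled by size alone, the median of all features moved to 0.28, 0.54 and 0.23 on the log2 scale, and those splits became 1034 and 195, 1611 and 27, and 682 and 75. The PPE week 2 libraries fell into unlike pairs. The summed level of the leukocyte genes Ptprc, Laptm5, Cd53 and Coro1a was 1138 and 1302 CPM in replicates 2 and 4, against 488 and 518 CPM in replicates 1 and 3. Each saline library lay at 408 to 518 CPM and each PPE week 1 library at 1116 to 1375 CPM. This leukocyte sum was mostly Laptm5, with means of 380, 1084 and 764 CPM in saline, PPE week 1 and PPE week 2. Ptprc and Cd53 were also higher in PPE week 2 replicates 2 and 4 than in replicates 1 and 3.

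Sequence just upstream of the transcription start is shown for the 3 genes called at PPE week 1 (Cd3g, Gzma and Ncr1). It is also shown for the pair with the largest fitted folds (Nkg7 and Gzmb), which were not called. Each line is the 250 bases before the start as RefSeq places it on GRCm38.p6, 5′ to 3′ on the gene's own strand. Capitals mark the short motifs searched on both strands: TGTGGT, the core bound by RUNX factors, GGTGTGA, a T-box element, and AGGAAG, an ETS element. No matches overlap in these windows.
Ncr1, chr7:4337465-4337714, plus strand: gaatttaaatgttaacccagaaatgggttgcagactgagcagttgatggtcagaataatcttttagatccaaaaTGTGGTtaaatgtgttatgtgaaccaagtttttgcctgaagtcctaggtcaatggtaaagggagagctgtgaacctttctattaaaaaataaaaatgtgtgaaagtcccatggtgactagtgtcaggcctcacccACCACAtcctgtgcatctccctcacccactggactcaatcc
Nkg7, chr7:43436888-43437137, plus strand: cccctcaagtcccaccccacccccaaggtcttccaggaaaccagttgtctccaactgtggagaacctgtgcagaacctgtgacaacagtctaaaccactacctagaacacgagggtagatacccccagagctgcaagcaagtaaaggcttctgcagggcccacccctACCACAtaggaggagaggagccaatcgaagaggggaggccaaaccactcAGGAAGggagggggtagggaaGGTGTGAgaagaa
Gzma, chr13:113100982-113101231, minus strand: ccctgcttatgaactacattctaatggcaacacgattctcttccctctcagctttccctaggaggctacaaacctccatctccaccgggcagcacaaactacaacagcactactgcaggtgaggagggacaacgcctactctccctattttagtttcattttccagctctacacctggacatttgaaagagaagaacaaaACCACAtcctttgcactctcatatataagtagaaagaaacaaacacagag
Gzmb, chr14:56262335-56262584, minus strand: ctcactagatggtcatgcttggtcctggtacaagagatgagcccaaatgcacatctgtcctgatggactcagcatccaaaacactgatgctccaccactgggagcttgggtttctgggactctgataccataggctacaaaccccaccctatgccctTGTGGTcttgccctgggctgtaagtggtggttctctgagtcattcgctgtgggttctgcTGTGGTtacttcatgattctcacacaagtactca
Cd3g, chr9:44980432-44980681, minus strand: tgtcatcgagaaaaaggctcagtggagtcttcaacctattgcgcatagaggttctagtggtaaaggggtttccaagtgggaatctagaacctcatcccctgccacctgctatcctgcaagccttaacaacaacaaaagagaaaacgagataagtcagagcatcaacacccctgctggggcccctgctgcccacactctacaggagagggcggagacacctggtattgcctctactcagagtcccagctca
The Ncr1 window held the RUNX letters at 2 places, starting 176 and 41 bases before the start, and the Gzmb window also at 2, at 93 and 34 bases. Nkg7 held all 3 motifs, with the RUNX letters at 83, the ETS letters at 34 and the T-box letters at 13 bases. Gzma held the RUNX letters at 50 bases, and Cd3g none of the 3. Of the 10 genes, 6 held the RUNX letters in at least 1 annotated start's window, 5 the ETS letters and 1 the T-box letters. Among all 32851 such windows the shares were 14.0, 29.5 and 3.33%. These shares are per window and the counts before them per gene, and Lck and Ncr1 have more than 1 window, so the units differ. A match describes the letters and is not evidence of binding.

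PPE week 1 and saline were harvested on the same day. Of these genes Ncr1, a receptor of NK cells, rose 6.63-fold at PPE week 1, the CD3 chain Cd3g 3.64-fold and the granzyme Gzma 3.25-fold. Of the 10 genes, 8 passed the filter on low counts, and all 8 had higher levels at PPE week 1 in each of the 4 libraries than in any saline library. Among tested features 12.1% lay wholly higher in this way and 9.01% wholly lower. In bulk tissue, more cells of a type and more RNA per cell cannot be told apart. The call was made for 3 of the 8: Ncr1, Gzma and Cd3g rose and none fell, where 3.98% of all features were called higher, 3.91% lower and 7.89% in either direction. At an unadjusted p under 0.05 the number was 7 of 8, against 21.7% of all features. The fitted log2 fold changes ran from 1.70 to 3.88 with a median of 2.48, where the median of all features was 0.0027. With the share of NR_046233 in each library as a covariate none of the 8 was called, and Ncr1 then had 2.64 (adjusted p = 0.122). Over all features that fit called 23 higher and 59 lower. The share did not overlap between saline (36.2 to 49.9%) and PPE week 1 (21.0 to 34.6%), so the covariate fit cannot separate it from treatment. With only the 8 libraries of these groups in the fit, 7 were called. Calls over all features also rose, from 508 higher and 499 lower of 12756 to 1113 and 913 of 11655. Leaving out 1 library gave 1 to 5 calls, with 5 (Nkg7 and Cd3e added) without PPE week 2 replicate 1. Over all features the leave-outs called 156 to 789 higher and 222 to 607 lower, with 789 and 607 without PPE week 2 replicate 1.

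**Figure D1:**
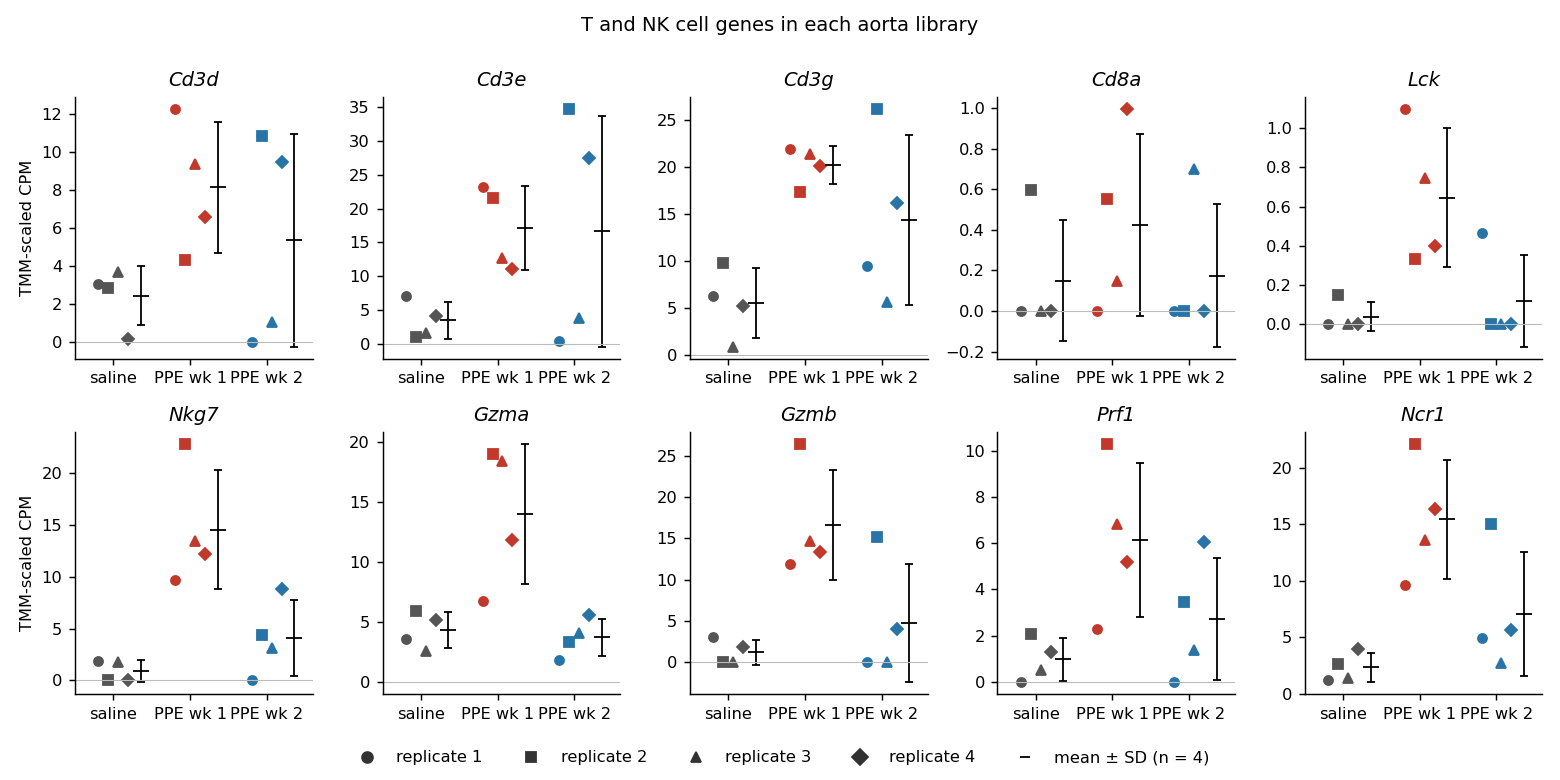
Level of each of the 10 genes (y axis, TMM-scaled CPM, linear, own scale per panel) in the 4 libraries of saline, PPE week 1 and PPE week 2, with a symbol per replicate number and the mean ± SD (n = 4) beside them. Every PPE week 1 library lies above every saline library for all genes but Cd8a, and at PPE week 2 replicates 2 and 4 are far above replicates 1 and 3 for Cd3d and Cd3e.

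The CD3 chains come first. Cd3g, Cd3d and Cd3e encode the gamma, delta and epsilon chains, which pair with each other and carry the activation motifs that Lck phosphorylates. Their genes lie side by side on chromosome 9 (mm10), Cd3g (NM_009850) from 44969572 to 44980431, Cd3d (NM_013487) from 44981769 to 44987052 and Cd3e (NM_007648) from 44998735 to 45009663.

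Cd3g was at 6.27, 9.83, 0.915 and 5.18 CPM in saline replicates 1 to 4, at 21.8, 17.4, 21.4 and 20.1 in the PPE week 1 libraries, and at 9.42, 26.2, 5.60 and 16.2 in those of PPE week 2. The PPE week 1 libraries were close to each other and stood clear of saline, while PPE week 2 spanned both. Cd3g rose 3.64-fold at PPE week 1 (log2 fold change 1.86 ± 0.54 SE, edgeR adjusted p = 0.0463). That call was near the threshold and was lost in 8 of the 12 fits that left out 1 library (saline 1, 3 and 4, each PPE week 1 library, and PPE week 2 replicate 4, with an adjusted p of 0.0534 to 0.127). Its difference from saline at PPE week 2 was 1.37 ± 0.54 (adjusted p = 0.196), and from PPE week 1 it was -0.49 ± 0.52 (adjusted p = 0.668).

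Cd3e was at 7.05, 0.894, 1.57 and 4.14 CPM in saline, at 23.2, 21.6, 12.6 and 10.98 in the PPE week 1 libraries, and at 0.373, 34.8, 3.85 and 27.5 in those of PPE week 2. PPE week 2 replicates 2 and 4 exceeded every PPE week 1 library, whereas replicate 1, with 4 counts, lay below every saline library. The fitted difference from saline was 2.29 ± 1.02 at PPE week 1 (adjusted p = 0.217) and 2.25 ± 1.02 at PPE week 2 (adjusted p = 0.296), and neither passed the test. Without PPE week 2 replicate 1 the first had an adjusted p of 0.0494. The difference between the PPE weeks was -0.04 ± 0.95 (adjusted p = 0.991), and its sign changed with the scaling and with single libraries left out.

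Cd3d was at 3.05, 2.83, 3.66 and 0.129 CPM in saline, at 12.3, 4.31, 9.35 and 6.59 in the PPE week 1 libraries, and at 0, 10.8, 1.05 and 9.50 in those of PPE week 2. Its PPE week 2 libraries split as those of Cd3e did, and the count of 0 in replicate 1 allows up to 0.280 CPM (3 counts, for counting error only). It was not called at PPE week 1 (1.75 ± 1.08, adjusted p = 0.397), at PPE week 2 (1.14 ± 1.07, adjusted p = 0.671) or between the weeks (-0.60 ± 1.04, adjusted p = 0.820).

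Per length of transcript the chains were not level. At PPE week 1 Cd3g had 19.7 ± 1.97 CPM per kilobase, Cd3e 11.7 ± 4.23 and Cd3d 5.03 ± 2.14 (mean ± SD, n = 4), with lengths of 1023, 1462 and 1617 bases from the matched GENCODE M21 transcripts. In saline the same order held for the means, 5.42 ± 3.59, 2.34 ± 1.92 and 1.49 ± 0.968, but the SDs there overlapped.

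Lck and Cd8a could hardly be measured. The deposited table has 3 accessions for Lck and 2 for Cd8a, and all but 1 of each had a count of 0 in all 12 libraries. Matched GENCODE transcripts leave the counted Lck accession (NM_001162433, chromosome 4, 129548344 to 129573641) 127 of its 2111 exon bases that no other Lck accession shares. For Cd8a (NM_001081110, chromosome 6, 71373427 to 71379171) the figure is 157 of 3128. The other 8 genes have 1 accession each. The microRNA gene Mir8119, which overlaps Lck, had 8 counts in all. Lck, with a total of 35 counts, was counted 0, 1, 0 and 0 times in saline, 12, 3, 10 and 4 times at PPE week 1, and 5, 0, 0 and 0 times at PPE week 2. Every PPE week 1 library held Lck counts, and 3 of 4 libraries in each other group held none. The ratio of PPE week 1 to saline, 29 counts against 1, was 22.5 with an exact 95% interval of 3.73 to 918, which covers counting error only. The interval, like each floor of 3 counts, takes counts as independent, although 66.0 to 75.6% of counts from 2 to 20 were even, so it may be too narrow. Cd8a, which marks cytotoxic T cells and also a class of dendritic cells, had 0, 4, 0 and 0 counts in saline, 0, 5, 2 and 10 in the PPE week 1 libraries, and 0, 0, 8 and 0 in those of PPE week 2. Its groups overlapped, and no difference was detectable at these counts. In the fit without a low-count filter the adjusted p at PPE week 1 was 0.386 for Lck and 0.799 for Cd8a. Cd8b1, which encodes the partner chain of CD8, passed the filter and was at 8.19 ± 2.71 CPM at PPE week 1 and at 1.98 ± 1.09 in saline, and was not called (2.04 ± 0.99, adjusted p = 0.252).

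Of the granule genes, Gzma encodes granzyme A, a tryptase of cytotoxic granules. Gzma (NM_010370, chromosome 13, 113093824 to 113100981) was at 3.57, 5.96, 2.61 and 5.18 CPM in saline, at 6.79, 19.0, 18.5 and 11.9 in the PPE week 1 libraries, and at 1.87, 3.36, 4.12 and 5.61 in those of PPE week 2. PPE week 1 stood above both other groups without overlap, replicate 1 by the least, and PPE week 2 lay within the saline range except for replicate 1, which was below it. Gzma rose 3.25-fold at PPE week 1 (1.70 ± 0.47, edgeR adjusted p = 0.0354) and was 3.74-fold lower at PPE week 2 than at PPE week 1 (-1.90 ± 0.47, adjusted p = 0.0239). Against saline, PPE week 2 differed by -0.20 ± 0.47 (adjusted p = 0.886), or by 0.30 when libraries were scaled by size alone. The first call was lost in 6 leave-outs, those of saline replicates 1, 3 and 4 and of PPE week 1 replicates 2, 3 and 4 (adjusted p 0.0669 to 0.143), in limma-voom (0.0646) and with the NR_046233 covariate (0.355). The second was lost in 4, those of PPE week 1 replicates 2 and 3 and of PPE week 2 replicates 1 and 3 (0.0534 to 0.107) and with the covariate (0.115). Cdc20b, which overlaps Gzma on the genome, had 2 counts over all libraries.

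Gzmb encodes granzyme B, which cleaves caspases and their substrates in the target cell. Gzmb (NM_013542, chromosome 14, 56258836 to 56262334) was at 3.13, 0, 0 and 1.81 CPM in saline, at 11.9, 26.4, 14.7 and 13.4 in the PPE week 1 libraries, and at 0, 15.2, 0 and 4.03 in those of PPE week 2. It had counts in all 4 libraries at PPE week 1 and in 2 of 4 in each other group. The fitted difference at PPE week 1 was 3.67 ± 1.59, with a mean of 16.6 ± 6.65 against 1.24 ± 1.53 CPM, and did not pass the test (adjusted p = 0.208). For PPE week 2 it was 1.87 ± 1.52 against saline (adjusted p = 0.611) and -1.79 ± 1.44 against PPE week 1 (adjusted p = 0.555). Gzmb was called at PPE week 1 with only the 2 groups compared (adjusted p = 0.0101), and lower between the weeks in limma-voom (-4.64, adjusted p = 0.0408). Each was 1 of 11 other settings, and 0 of 12 leave-outs called it in either comparison.

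Prf1 encodes perforin. Prf1 (NM_011073, chromosome 10, 61297751 to 61304684) was at 0, 2.09, 0.523 and 1.29 CPM in saline, at 2.29, 10.3, 6.81 and 5.19 in the PPE week 1 libraries, and at 0, 3.45, 1.40 and 6.05 in those of PPE week 2. PPE week 1 replicate 1 lay only just above the highest saline library, and replicate 2 was the highest of all 12. The difference at PPE week 1 was 2.67 ± 1.15 (adjusted p = 0.180), at PPE week 2 against saline 1.51 ± 1.12 (0.557) and between the weeks -1.16 ± 1.07 (0.610), by edgeR.

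Nkg7 encodes a membrane protein of the granules of NK and cytotoxic T cells. Nkg7 (NM_024253, chromosome 7, 43437138 to 43438246) was at 1.92, 0, 1.83 and 0 CPM in saline, at 9.64, 22.8, 13.5 and 12.2 in the PPE week 1 libraries, and at 0, 4.41, 3.15 and 8.78 in those of PPE week 2. PPE week 1 was again clear of both other groups. Its difference at PPE week 1 was the largest fitted among the 8, 3.88 ± 1.20, a fold of 14.8, and it missed the threshold (adjusted p = 0.0689). DESeq2 called it (0.0446), as did the fit of halved counts (0.0322) and the fit without PPE week 2 replicate 1 (0.00939). Later, at PPE week 2, it differed by 2.06 ± 1.15 from saline (adjusted p = 0.403) and by -1.82 ± 1.07 from PPE week 1 (adjusted p = 0.384).

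Ncr1, the NK cell receptor NKp46, gave the firmest call. Ncr1 (NM_010746, chromosome 7, 4337715 to 4345184) was at 1.22, 2.68, 1.44 and 4.01 CPM in saline, at 9.64, 22.1, 13.6 and 16.4 in the PPE week 1 libraries, and at 4.94, 15.1, 2.71 and 5.61 in those of PPE week 2. All PPE week 1 libraries exceeded saline, and at PPE week 2 replicates 1, 2 and 4 did. Ncr1 rose 6.63-fold at PPE week 1 (2.73 ± 0.56, edgeR adjusted p = 0.00802). It was called in each of the 12 leave-outs (adjusted p 0.00322 to 0.0341) and in 10 of the 11 other settings, the covariate fit being the exception. The PPE week 2 difference was 1.60 ± 0.55 (adjusted p = 0.133), which was called when libraries were scaled by size alone (2.11, adjusted p = 0.0201). Between the weeks it was -1.12 ± 0.52 (adjusted p = 0.229), and -1.79 without PPE week 2 replicate 2 (adjusted p = 0.0370).

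**Figure D2:**
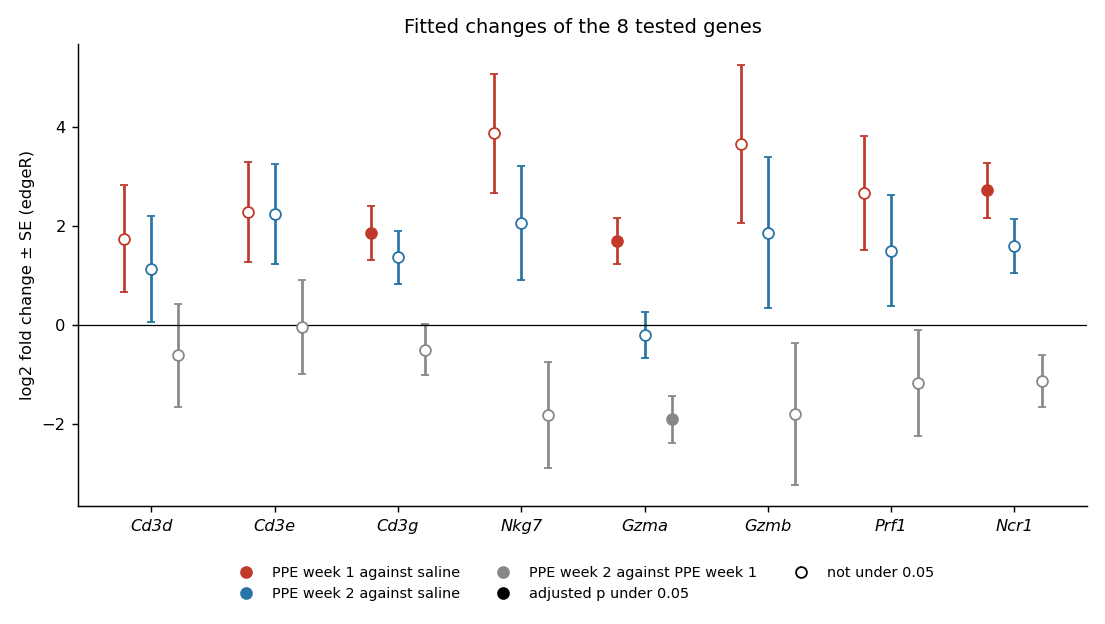
Fitted log2 fold change ± SE (y axis, edgeR, 12 libraries) of the 8 tested genes in the 3 comparisons, filled where the adjusted p was under 0.05. PPE week 1 against saline lies above 0 for every gene and is filled for Cd3g, Gzma and Ncr1, and PPE week 2 against PPE week 1 is filled for Gzma alone.

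Per kilobase of transcript, the order of the mean levels at PPE week 1 was Cd3g (19.7), Nkg7 (16.5 ± 6.51), Gzma (16.0 ± 6.63), Cd3e (11.7), Gzmb (11.6 ± 4.63), Ncr1 (10.6 ± 3.58), Cd3d (5.03) and Prf1 (2.48 ± 1.35), in CPM per kilobase (SD, n = 4). Neighbours from Cd3g down to Ncr1 differed by less than the larger of their SDs. Ncr1 and Cd3d, and Cd3d and Prf1, lay further apart than either SD.

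None of the 8 tested genes passed at PPE week 2 against saline in edgeR, in DESeq2 or in limma-voom. At an unadjusted p under 0.05 there were 3 (Cd3e, Cd3g and Ncr1), where 16.6% of all features reached it, and 2.65% of all features were called by edgeR, 1.3% higher and 1.35% lower. The fitted changes ran from -0.20 for Gzma to 2.25 for Cd3e, with a median of 1.56 against 0.05 for all features. No gene lay wholly above or below saline, where 4.55% of features were wholly higher and 4.44% wholly lower. Scaled by library size alone, Cd3g and Ncr1 were called (1.91 and 2.11). Between the PPE weeks all 8 had a fitted difference below 0, from -1.90 to -0.04 with a median of -1.14, and 1 of the 8, Gzma, was called lower, against 2.82% of features (6.59% in either direction, 3.77% higher). At an unadjusted p under 0.05 there were 2, against 20.5% of features. Nkg7 and Gzma were wholly lower at PPE week 2 than at PPE week 1, as 8.68% of features were, while 7.24% were wholly higher. Both comparisons with saline share the 4 saline libraries, and both with PPE week 1 share its 4 libraries, so they are not independent of each other.

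In the authors' deposited table for PPE week 1 against the control group 8 of the 10 genes are listed, 7 of them with an adjusted p under 0.05. In that table Ncr1 has a log2 fold change of 2.34 (adjusted p = 5.48e-08), Cd3e 1.88 (0.000177) and Gzmb 1.40 (0.0660). The edgeR values above were larger, at 2.73, 2.29 and 3.67, and the cause was not tested. The authors' deposited table for PPE week 2 lists 6 of the 10, none with an adjusted p under 0.05. The share of all features under 0.05 in these tables was not taken, so the counts cannot be set against it.

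To set T cell receptor genes beside killing genes within a library, the levels of Cd3d, Cd3e and Cd3g were summed, as were those of Nkg7, Gzma, Gzmb, Prf1 and Ncr1. The CD3 sum was 16.4, 13.6, 6.14 and 9.45 CPM in saline, 57.4, 43.2, 43.4 and 37.6 in the PPE week 1 libraries, and 9.79, 71.8, 10.5 and 53.2 in those of PPE week 2. The granule and NK sum was 9.84, 10.7, 6.40 and 12.3 CPM in saline, 40.3, 100.6, 67.0 and 59.0 in the PPE week 1 libraries, and 6.81, 41.4, 11.4 and 30.1 in those of PPE week 2. In the CD3 sum, PPE week 2 replicates 2 and 4 were within or above the range of PPE week 1, and in the granule and NK sum 1 lay just above its lowest value and the other below it. The ratio of the granule and NK sum to the CD3 sum was 0.601, 0.791, 1.04 and 1.30 in saline, 0.702, 2.33, 1.54 and 1.57 in the PPE week 1 libraries, and 0.695, 0.577, 1.08 and 0.566 in those of PPE week 2. Thus 3 of 4 PPE week 1 libraries lay above all the others in this ratio, and PPE week 1 replicate 1, with the highest CD3 sum and the lowest granule and NK sum of its group, lay among the saline values. These sums are given as a description, with no test.

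**Figure D3:**
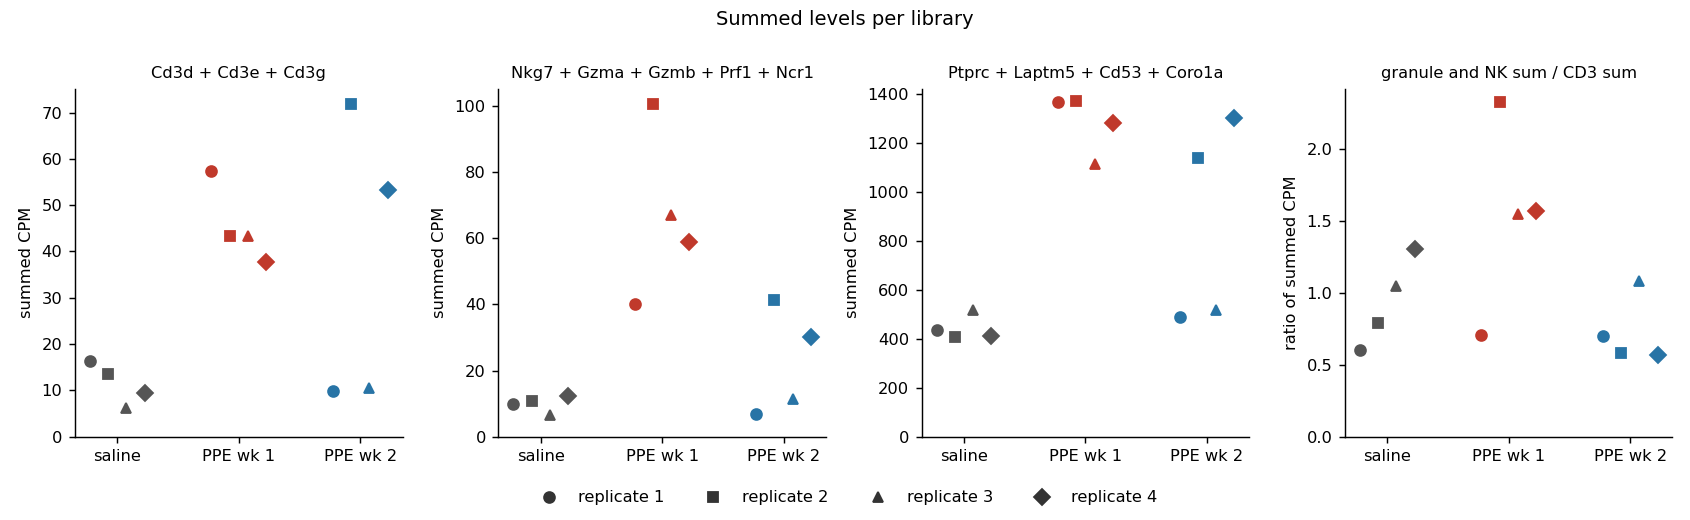
Summed CPM per library (y axes, linear from 0) of the CD3 chains, of the 5 granule and NK genes and of 4 leukocyte genes, and the ratio of the granule and NK sum to the CD3 sum, with a symbol per replicate number in each group. PPE week 2 replicates 2 and 4 reach 71.8 and 53.2 CPM in the CD3 sum and stand at 1138 and 1302 CPM in the leukocyte sum, and 3 PPE week 1 libraries have ratios of 1.54 to 2.33.

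Genes of several other leukocytes moved with these sums. Ptprc, which encodes the leukocyte protein CD45, rose at PPE week 1 to 33.1 ± 5.88 from 9.04 ± 3.24 CPM (1.88 ± 0.46, edgeR adjusted p = 0.0221), a call lost in 5 of 12 leave-outs (saline 1 and 4, PPE week 1 replicates 1, 2 and 4). Cd68, the macrophage lysosomal protein, rose to 119.7 ± 16.6 from 42.8 ± 4.90 CPM. The summed level of 5 macrophage markers (Cd68, Adgre1, Csf1r, Cd14 and Fcgr1), all detected, was 546 to 649 CPM in saline, 1144 to 1435 at PPE week 1 and 336 to 982 at PPE week 2. Among B cell genes, Cd79a was at 0.388 to 2.87 CPM in saline, 2.10 to 6.43 in PPE week 1 and 1.40 to 23.6 in PPE week 2, with replicate 2 the highest. Ms4a1, another B cell gene, overlapped among all groups (0 to 8.02, 0.200 to 4.26 and 0 to 6.62 CPM). Of 4 neutrophil markers S100a9 was at 0 everywhere, and the sum was 2.98 to 11.7, 30.1 to 122.6 and 2.63 to 14.0 CPM in the same order of groups. Of 5 dendritic cell markers Clec9a was at 0 everywhere, and the sum was 106.5 to 131.7, 175 to 236 and 52.6 to 205 CPM. That sum was mostly Itgax, with means of 102, 161 and 114.5 CPM. Zbtb46 overlapped between saline (1.49 to 7.31 CPM) and PPE week 1 (4.71 to 7.07), while Flt3 and Xcr1 did not. Of 4 mast cell markers Kit was at 0 everywhere, and the sum did not follow the leukocyte sum: it was 10.98 to 16.8 CPM in saline, 6.19 to 17.5 in PPE week 1 and 4.20 to 52.2 in PPE week 2, highest in PPE week 2 replicate 1. As a percentage of the leukocyte sum, the CD3 sum was 1.19 to 3.77% in saline, 2.94 to 4.19% at PPE week 1 and 2.01 to 6.31% at PPE week 2. The granule and NK sum was 1.24 to 2.98%, 2.94 to 7.32% and 1.39 to 3.64% of it. In the latter 3 of 4 PPE week 1 libraries exceeded all others, whereas the CD3 percentages overlapped among all groups. The part of these other cell types, of the lower smooth muscle sum and of the NR_046233 share in the differences of the 10 genes was not tested.

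Markers of a lymph node or thymus caught with the aorta overlapped among the groups in their sum. Of 6 such genes Rag1 and Glycam1 were at 0 in all libraries. A count of 0 need not mean absence here. The endothelial gene Pecam1 was also at 0 in all libraries, while Cdh5, another endothelial gene, was at 207 to 241 CPM in saline. The sum of the 6 was 1.19 to 7.75 CPM in saline, 3.43 to 6.24 at PPE week 1 and 2.23 to 6.39 at PPE week 2. It was mostly Cr2, with means of 4.36, 4.73 and 4.21 CPM in the same order of groups. Whether such tissue was caught was not tested. Of 6 NK cell markers Klrb1c was at 0 everywhere, and the sum, Ncr1 included, was 2.96 to 6.41 CPM in saline, 30.7 to 43.9 at PPE week 1 and 3.94 to 36.1 at PPE week 2. The 8 T cell markers, Cd3d, Cd3e, Cd3g and Lck included, summed to 17.8 to 44.6, 74.2 to 110.1 and 24.8 to 113.8 CPM. PPE week 1 was thus above saline without overlap in both sums, which hold genes already described above. Of the other T cell markers, Cd247 and Cd2 were also above saline without overlap. Cd5 (0.596 to 14.6 CPM in saline, 5.64 to 11.1 at PPE week 1) and Lat (3.24 to 6.96 and 4.64 to 15.4) overlapped.

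The wider pathways were described by 7 lists with 96 genes, of which 69 were tested. At PPE week 1 against saline 13 rose and none fell, where 3.98% of all features were called higher and 3.91% lower. These 13 calls depended on the setting: 18 rose under scaling by size alone and 9 when the replicate number was a block. With the NR_046233 covariate 0 rose, and over the leave-outs 5 to 21. Calls higher over all features, 508 as reported, were 1034, 419, 23 and 156 to 789 in the same order of settings. The 13 include Cd6, which passed the low-count filter through the PPE libraries alone. Of the 69, 67 had a fitted change above 0, and the share of all features above 0 was not taken. The 67 include Cd6 and Gzmk, which had no count in saline. Their sign was therefore set by passing the filter, and both enter the medians of their lists. The median of every list lay between 1.25 and 1.98, where that of all features was 0.0027. Many of these genes are also used by macrophages and other leukocytes.

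Of 14 tested genes of the T cell receptor complex and its signalling, 2 rose, with a list median of 1.77. Sla2, an adaptor that dampens receptor signalling, rose to 8.37 from 1.33 CPM (2.61 ± 0.73, edgeR adjusted p = 0.0362), a call lost in 7 of 12 leave-outs, in limma-voom and with the replicate block. Cd6, a T cell surface receptor, had no count in saline and 39, 10, 26 and 12 counts at PPE week 1 (edgeR adjusted p = 0.0237). This was 22.5-fold above 3 counts over the saline group, a fold that allows for counting error in saline only. Cd6 lost its call in 6 of 12 leave-outs and with the replicate block. Having no count in saline, it could be tested only because its PPE libraries were high. Cd4, the coreceptor of helper T cells that mouse macrophages can also express, was at 48.5 ± 7.27 CPM, in saline at 13.3 ± 3.55, and missed the threshold (1.87 ± 0.60, adjusted p = 0.0831). The same held for Cd247, the zeta chain of the receptor (2.04 ± 0.68, adjusted p = 0.0773). Zap70, the kinase that binds phosphorylated CD3 chains, had 12 counts at PPE week 1, all in replicate 3, and none in saline.

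Of 10 NK receptors and adaptors 3 rose, with a median of 1.44. Klrd1, which encodes the receptor chain CD94, was at 15.9 ± 0.627 against 2.17 ± 1.51 CPM (2.87 ± 0.65, edgeR adjusted p = 0.0142, and 0.0509 without saline replicate 4). Its 4 PPE week 1 libraries lay between 15.0 and 16.4 CPM and its saline libraries between 0.894 and 4.31. The adaptors Fcer1g (1.70 ± 0.37, adjusted p = 0.0186) and Tyrobp (1.36 ± 0.34, adjusted p = 0.0315), which myeloid cells also use, rose as well, with calls lost in 3 and 8 of 12 leave-outs and without the low-count filter, and that of Tyrobp also with the replicate block. Both adaptors at PPE week 2 were lower than at PPE week 1 (-1.54 ± 0.37, adjusted p = 0.0309, and -1.27 ± 0.34, adjusted p = 0.0455), calls lost in 4 and 10 of 12 leave-outs. The same calls were lost when libraries were scaled by size alone, without the low-count filter and with only the 2 groups compared. They were also lost with the NR_046233 covariate, and that of Tyrobp with the replicate block.

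Of 9 granule and killing genes 3 rose, with a median of 1.46. Ctsw, a cysteine protease of NK and cytotoxic T cells, was at 21.0 ± 1.11 against 3.66 ± 1.93 CPM (2.50 ± 0.59, edgeR adjusted p = 0.0186), a call lost without saline replicate 4 or PPE week 1 replicate 2 and in limma-voom. It was also the only gene of the 69 called at PPE week 2 against saline, at 18.5 ± 13.5 CPM (2.32 ± 0.58, adjusted p = 0.0473), where 1.3% of all features were called higher. Its PPE week 2 libraries ran from 3.15 to 29.9 CPM and overlapped saline, at 1.18 to 5.31. This call was lost in 10 of 12 leave-outs (adjusted p up to 0.141), in limma-voom (0.315) and with the replicate block (0.0511). It was also lost without the low-count filter, with only the 2 groups compared and with the NR_046233 covariate. Unc13d, which primes granules for fusion, rose to 35.3 from 12.8 CPM and was called in all 12 leave-outs (1.46 ± 0.28, adjusted p = 0.00481). Srgn, the proteoglycan that packs granules in many leukocytes, rose to 252 from 73.1 CPM (1.78 ± 0.47, adjusted p = 0.0461), a call lost in 9 of 12 leave-outs, in limma-voom, with the replicate block and without the low-count filter. Serpinb9, an inhibitor of granzyme B, was 1.71-fold lower at PPE week 2 than at PPE week 1 (-0.78 ± 0.20, adjusted p = 0.0298), as was Ctsc, the protease that activates granzymes, by 2.59-fold (-1.37 ± 0.36, adjusted p = 0.0440). These calls were lost in 5 and 10 of 12 leave-outs, and both when libraries were scaled by size alone. Both were also lost with only the 2 groups compared and with the NR_046233 covariate, and that of Ctsc without the low-count filter.

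Of 6 tested transcription factors Ikzf3, a lymphocyte zinc finger factor, was the 1 that rose, to 38.3 from 9.56 CPM (2.01 ± 0.46, edgeR adjusted p = 0.0154, and 0.0623 without saline replicate 4). Tbx21, the T-box factor of cytotoxic and NK cells, was not called (2.26 ± 1.05, adjusted p = 0.229). None of 9 cytokine and receptor genes was called, with a smallest adjusted p of 0.0983, for the interleukin 2 and 15 receptor chain Il2rb (2.34 ± 0.78). Ifng, the cytokine made by activated T and NK cells, was below the filter, with no count in saline, 6, 32, 4 and 12 counts in the PPE week 1 libraries and 2, 10, 0 and 4 in those of PPE week 2. The PPE week 1 sum of 54 counts, 32 of them in replicate 2, was 14.0-fold above 3 counts over the saline group. That fold allows for counting error in saline only, and no test is given for Ifng.

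Of 13 genes of recruitment 3 rose, with a median of 1.98. Cxcl10, an interferon-induced ligand of CXCR3 on activated T and NK cells, kept its call in all 12 leave-outs (3.50 ± 0.64, edgeR adjusted p = 0.00982). Ccl5 (2.61 ± 0.67, adjusted p = 0.0366) and Ccl3 (3.12 ± 0.79, adjusted p = 0.0271), chemokines that attract T cells and monocytes, rose too, with calls lost in 8 and 5 of 12 leave-outs and without the low-count filter, that of Ccl5 also in limma-voom and that of Ccl3 with the replicate block. The receptor Cxcr3 was at 9.89 ± 2.09 CPM, in saline at 1.58 ± 0.536, and missed the threshold (2.64 ± 0.90, adjusted p = 0.0886), and Cxcl9, another of its ligands, at 130.6 against 33.1 CPM (1.98 ± 0.85, adjusted p = 0.205). Of 8 checkpoint and co-stimulation genes Cd274, which encodes the inhibitory ligand PD-L1, was the 1 that rose (1.81 ± 0.38, adjusted p = 0.0134, called in all 12 leave-outs).

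**Figure D4:**
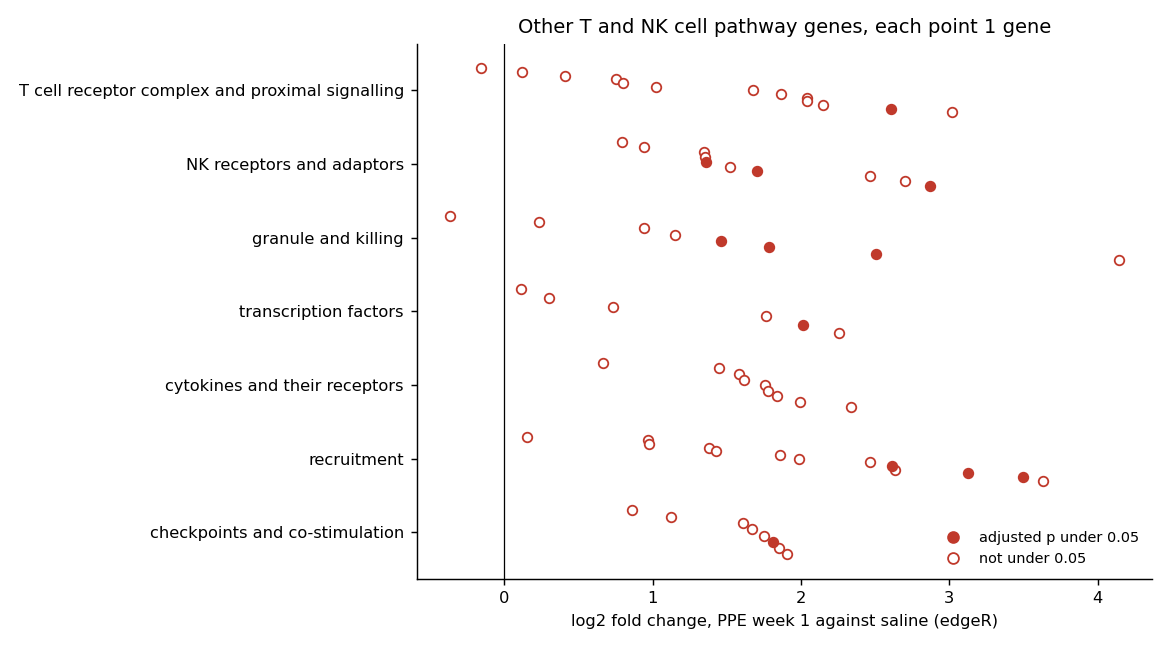
Fitted log2 fold change of PPE week 1 against saline (x axis, edgeR) for 67 tested genes in 7 lists (y axis), each point a gene, filled where the adjusted p was under 0.05. Cd6 and Gzmk, with no count in saline, are left out, and nearly all points lie to the right of 0, with 12 of them filled.

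The genes most alike in pattern were sought by Pearson correlation over the 12 libraries with the mean profile of the 8 tested genes, in log2 CPM after centring each gene. The highest were Lrrc25 (r = 0.983), Pik3ap1 (0.9805), Tgtp2 (0.976), Sp100 (0.974) and B2m (0.974). The 12 points share their 3 groups and the leukocyte content of each library, so these values only describe likeness. B2m, the light chain of MHC class I, had mean levels of 982 CPM in the saline group, 2496 in PPE week 1 and 1554 in PPE week 2. For Lrrc25 these were 7.04, 30.7 and 12.7 CPM. Among the 8 genes themselves the most alike pair was Cd3e and Gzmb (r = 0.887) and the least alike Cd3d and Ncr1 (0.402), with Cd3d and Cd3e at 0.744.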

How the data were processed

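The authors deposited raw counts per RefSeq accession for 12 libraries, and 2 tables of their own comparisons, in which each accession has its log2 fold change with raw and adjusted p-values. Total RNA was extracted with TRIzol and made into libraries with the TrueSeq kit v2, per the labels' protocols. Such libraries keep no record of strand. Named in the submitters' processing notes are bcl2fastq, DESeq2 and the build mm10. How reads were aligned and counted is not given in the sources used here. Of 34755 accessions, RefSeq's GRCm38.p6 table named 34419 and GENCODE M21 a further 197.

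From the counts, edgeR 4.0.16 (R 4.3.3) kept 12756 accessions by filterByExpr, scaled by TMM and fitted a robust quasi-likelihood model to all 12 libraries. The standard error is the log2 fold change divided by the square root of F. DESeq2 1.42.0 and limma 3.58.1 were alternatives. Between 66.0 and 75.6% of counts from 2 to 20 were even, as would happen if both mates of a pair were often counted, which was not tested, so halved counts were tried. Labels give each library as a separate sample of 1 group, and p-values measure the spread between these samples.

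The 10 genes and the lists were chosen with earlier results of these data known. Named beside the 10 genes were the list genes called at PPE week 1 (up to 5 per list), Cd4, Cd247, Zap70, Cxcr3, Cxcl9, Cxcl10, Ccl5, Ifng, Ptprc and Cd68, and the 5 most alike genes. Cd8b1, Tbx21, Il2rb, Ctsc and Serpinb9 were named after their values were seen. No protein sequences were used here. The B cell marker sum is not reported here.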

Additional observations from a re-analysis of the deposited data

Results flagged for a closer look

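Of 29 sets of 4 libraries (a gene in a group) with more than 3 counts in some library, 3 held a library far from the others by Dixon's test, which chance does in about 1 set in 20. In each of them the library was the only one of its group with any count, so that the other 3 were tied at 0. The test is met by such ties whatever the count, and its chance rate does not hold for them. Cd8a was at 0.596 CPM in saline replicate 2 (4 counts) and at 0.701 CPM in PPE week 2 replicate 3 (8 counts), and Lck at 0.466 CPM in PPE week 2 replicate 1 (5 counts). The change in Gzma differed between the time points, since PPE week 2 was lower than PPE week 1 by a test of that difference (log2 fold change -1.90, edgeR adjusted p = 0.0239).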

How the results depend on the processing

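Over 23 alternatives the 8 tested genes kept a fitted change above 0 at PPE week 1 against saline wherever a value was given. The 3 genes called higher there became 7 with only the 2 groups compared, where 1113 of 11655 features were called higher. They became 0 with the NR_046233 share as a covariate (23 of 12756 features) and 1 to 5 over the 12 leave-outs (156 to 789 features). That share did not overlap between saline and PPE week 1, so the covariate fit cannot separate it from treatment. At PPE week 2 against saline 0 became 2 with scaling by library size only. The 1 gene called lower at PPE week 2 against PPE week 1 became 2 in limma-voom (Gzma and Gzmb), 0 with the covariate and 0 to 2 over the leave-outs. The replicate block called 3, 0 and 1 in these comparisons. The replicate numbers did not pair the libraries: 0 of 12 same-numbered pairs had deviations correlated over 0.1 (r -0.0881 to 0.0353), and 0 libraries correlated best with their own number.

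Signs changed for differences that were not called. At PPE week 2 against saline Cd3d was -0.00033 in limma-voom, Gzma 0.30 with library size only and -0.47 to 0.016 over the leave-outs (above 0 without PPE week 2 replicate 1), and Gzmb -2.33 with the covariate. Between the PPE weeks Cd3e was 0.24 with library size only, and -0.68 to 0.36 over the leave-outs (above 0 without replicate 1 or 2 of PPE week 1 or 1 or 3 of PPE week 2). The cause was not tested. Over all features the alternatives called 23 to 1113 higher and 59 to 913 lower at PPE week 1 against saline (508 and 499 as reported), 0 to 1611 and 0 to 345 at PPE week 2 (166 and 172), and 54 to 832 and 15 to 655 between the weeks (481 and 360). The list genes' 13 calls of 69 tested at PPE week 1 became 25 of 62 in DESeq2, where 857 of 11313 features were called higher. They became 39 of 66 with only the 2 groups compared (1113 of 11655 features) and 0 of 69 with the covariate (23 of 12756 features). The settings for list genes were added after the data were seen. The planned look at protein sequences was not run. Many counts of these genes were under 100 per library, which limits all their comparisons.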
